A study of Mus musculus with 24 samples.

Results

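The resting state described here is that of mouse bone marrow derived macrophages kept for 24 hours in medium alone, measured on 6 of the 24 microarrays of the series. The 6 arrays were chosen by their label, media only, and comprised 2 arrays from each of 3 experiments. The cells came from the marrow of female Balb/c mice aged 8 to 10 weeks, and no agent was added to them. The other 18 arrays carried the same cells after isoproterenol, IL-4 or IFN-gamma and were not used for levels here. Total RNA was labelled with biotin and hybridised to Illumina MouseRef-8 v2.0 bead chips, on which each array carries many beads per probe. Neither the growth factor used to grow the macrophages nor the number of mice pooled per culture is given in the sources used here, nor whether the 2 arrays of an experiment came from separate cultures. Each of the 3 experiments lay on a slide of its own, so experiment and slide cannot be told apart.

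Bone marrow derived macrophages are grown from marrow precursors, which mature into adherent phagocytes under the growth factor CSF1 and its receptor CSF1R. Macrophages engulf particles and dying cells, break them down in lysosomes, recycle iron and lipid from what they take up, and carry receptors for microbial products, antibodies and cytokines. Their identity is set by transcription factors of the ETS, C/EBP, IRF and MAF families, and a cell in medium alone is the baseline from which activation programs are read.

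Levels are normalized intensities on a linear scale, as deposited, for 18132 gene rows. An experiment's value was the mean of its 2 arrays, and each mean ± SD below is over the 3 experiments (n = 3). The brightness of a row depends on its probe as well as on its transcript, so a rank orders rows by brightness and not by number of transcripts. A row was called above background where its intensity passed 147.8, which is the most common intensity, 136.6, raised to the one-sided 95% point of a normal distribution whose SD is that of the log2 values below it. With this limit, 8039 of 18132 rows (44.3%) were above background on all 6 arrays and 6259 (34.5%) were above it on none. Each array had between 9502 and 9563 rows above the limit. Before normalization, the median probe intensity was 157 and 160.4 on the arrays of experiment 1, 155 and 158 in experiment 2, and 138 and 145 in experiment 3.

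Olfactory, vomeronasal, taste and trace amine receptors are made mainly by chemosensory cells and served as rows with little or no transcript in these macrophages. Of 1260 such rows, 17 (1.35%) were above the limit on all 6 arrays and 901 (71.5%) were above it on none, and their median level was 136. The brightest was Olfr724 with 205 ± 11, so a level a little above the limit can come from a row of this kind. Their 99th percentile, 164, is given below as a stricter line, which 6948 rows passed on all 6 arrays. The Y-linked genes gave a second check, since the donors were female. Uty read 161 ± 2.39 and was above the limit on all 6 arrays, Ddx3y on 5, Kdm5d on 1 and Eif2s3y on 0. Xist, the RNA that coats the inactive X chromosome of female cells, read 417 ± 29.5 and was above both lines on every array. A level between the limit and the stricter line is thus within the range that receptor and Y-linked rows also reached.

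**Figure D1:**
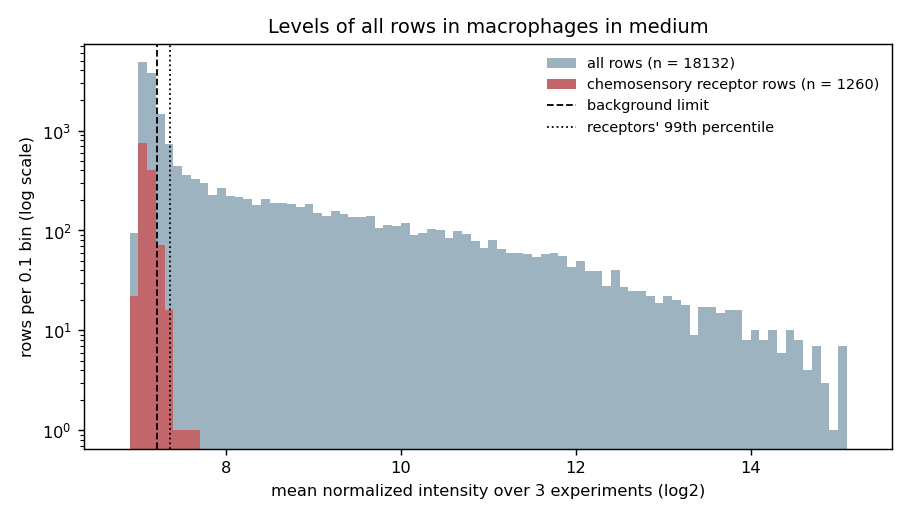
Number of gene rows (log scale) by mean normalized intensity over the 3 experiments (log2), for all 18132 rows and for the 1260 chemosensory receptor rows, with the background limit dashed and the receptors' 99th percentile dotted. Most rows lie in the peak on the left, where nearly all receptor rows fall, and a long tail runs to the right.

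The brightest rows of resting macrophages encoded proteins of several kinds, with ribosomal proteins the most frequent of the classes counted. Cstb, a cytosolic inhibitor of cathepsins, had the highest mean, 34707 ± 1005. It was followed by Lyz2, the lysozyme of myeloid cells, with 34479 ± 1009, and by the ribosomal stalk protein Rplp1 with 34459 ± 581. Fth1, the heavy chain of the iron store ferritin, read 34059.5 ± 639, and Psap, the precursor of the saposins that help degrade sphingolipids, read 33841 ± 333. A second lysozyme row that the files name LYZ read 32967 ± 1085.

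The SD of these leading rows was small against their level, and their order among neighbours was within it. The 4 rows Cstb, Lyz2, Rplp1 and Fth1, for instance, were less than 1 SD of Cstb apart. The deposited arrays share one distribution, so a row that keeps a top rank takes nearly the same value on every array. A small SD at the top thus follows in part from the normalization and does not measure steady expression. Among the 25 brightest rows were 7 of ribosomal proteins, among them Rplp1, Rpl41, Rps12, Rpl9, Rpl35 and Rps4x, between 24007 and 34459. The ubiquitin gene Ubb and the row Ubb-ps read 31991 and 28038, and since these are near-identical sequences their signals may not be separable. Others in this group were Gpx1, which removes peroxides (29297 ± 1375), the lysosomal membrane protein Laptm5 (27284 ± 557), lipoprotein lipase Lpl (26873 ± 1917), the prolyl isomerase Ppia (26426 ± 1049), the lysosomal protease Ctsb (26237 ± 634), the galactose-binding lectin Lgals3 (25597 ± 667) and the aldehyde reductase Akr1a1 (24315 ± 373). The remaining 4 carried the predicted-gene names LOC666904, LOC675813, Gm9294 and LOC218963.

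Signal was concentrated in few rows. The 25 brightest held 6.09% of the summed intensity, the 100 brightest 17.6% and the 1000 brightest 56.0%. A total of 47 rows exceeded an intensity of 20000 and another 127 lay between 10000 and 20000, whereas 11795 rows read 200 or less. Of the 100 brightest rows, 24 had ribosomal protein symbols, 6 belonged to the lysosome list described below and 14 had numbered predicted-gene names.

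Ribosomal proteins were nearly all bright. Of 63 rows with such symbols, 56 were above background on all 6 arrays, 31 exceeded 10000 and their median was 9958. Genes of this class often start transcription at a cytosine within a run of pyrimidines, a feature that links their translation to growth signals. A promoter of 300 bases, mostly upstream of the transcription start and reaching a little past it, was available from RefSeq (GRCm38.p6) for 51 of the 63. A cytosine followed by at least 4 pyrimidines was searched for anywhere in a short window around the start. It was found in 43.1% of these 51, in 6.97% of 1047 receptor promoters and in 12.8% of all 27025 promoters in the RefSeq table. Whether transcription begins at that cytosine was not measured. A ratio of observed to expected CpG above 0.6 was found in 86.3% of the ribosomal promoters, in 0.573% of the receptor promoters and in 36.4% of all promoters. Rpl35 is shown as the brightest of the 51 ribosomal rows to hold such a run, on the minus strand at chr2:39005082-39005381 (GRCm38.p6). Capitals mark the part of the run inside the searched window, and the pyrimidines continue on both sides of it.
Rpl35: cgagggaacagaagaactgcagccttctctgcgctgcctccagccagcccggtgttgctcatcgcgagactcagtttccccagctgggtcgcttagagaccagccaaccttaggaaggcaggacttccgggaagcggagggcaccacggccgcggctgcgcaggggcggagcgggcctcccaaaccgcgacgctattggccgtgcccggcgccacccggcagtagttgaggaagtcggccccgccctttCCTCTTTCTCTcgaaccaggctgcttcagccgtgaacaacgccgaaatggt

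The defining macrophage genes were present and mostly bright. Of the 19 listed identity genes in the table, 15 (78.9%) were above background on all 6 arrays, against 44.3% of all rows, and the same 15 were above the stricter line. The median over the 19 was 2473. CD68, a glycoprotein of late endosomes and lysosomes, was the brightest of the 3 markers by which the cells were checked. The Cd68 row read 22949 and 22826 in experiment 1, 21839 and 21989.5 in experiment 3 and 22140.0 and 20439.9 in experiment 2. Cd14, the co-receptor that hands bacterial lipopolysaccharide to TLR4, read 8739.9 and 9206 in experiment 2, 9027 and 8861 in experiment 3 and 8812 and 8979 in experiment 1. Csf1r, the receptor for the growth factor on which macrophages depend, read 3218 and 3476 in experiment 1, 3111 and 2847 in experiment 3 and 2491 and 2187 in experiment 2. The Cd14 arrays stayed between 8740 and 9206 with no experiment apart, while the Csf1r arrays of experiment 2 lay below those of the others.

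The other identity rows ran from the top of the array to its background. Lyz2 and Laptm5 ranked 2 and 14 of all rows and Cd68 ranked 35. Fcgr3, a receptor for IgG, read 18449.7 ± 1504, and Tyrobp, the signalling adaptor of TREM2 and related receptors, read 11303 ± 671. The mannose receptor Mrc1 read 3446 ± 689.5 and Mertk, a receptor that binds dying cells, read 734 ± 136. At the other end, the scavenger receptor Marco was above the limit on 5 arrays (158 ± 8.07), the Fc receptor gamma chain Fcer1g on 4 (154 ± 8.85), the haemoglobin scavenger receptor Cd163 on 2 (141 ± 6.75) and the scavenger receptor Msr1 on none (129 ± 0.879). Fcer1g is the partner chain of the Fc receptors that read bright here, so a row at background on this array is not evidence that its gene was silent. Mpeg1 was not analysed here.

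**Figure D2:**
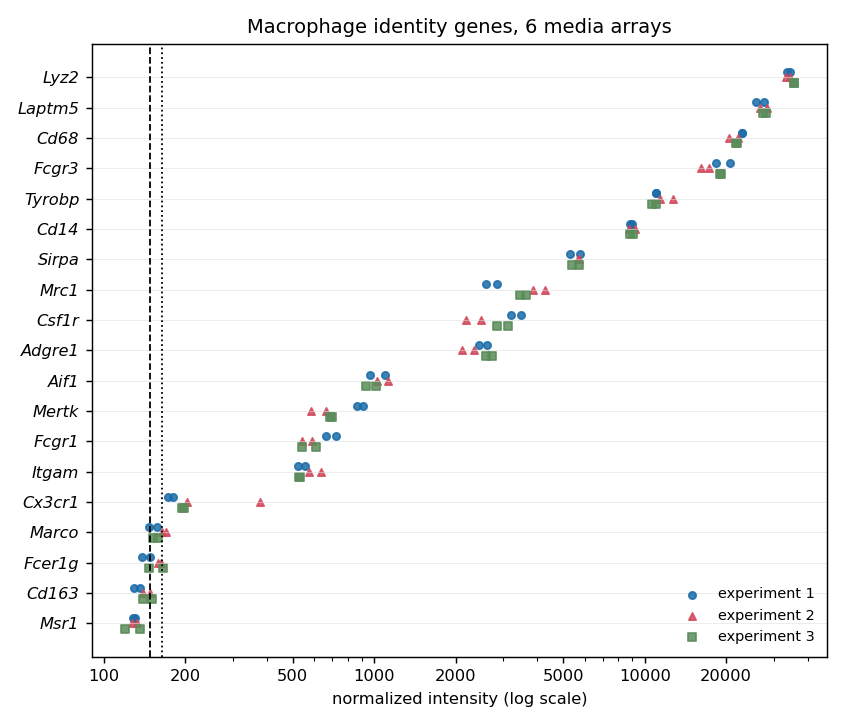
Normalized intensity (log scale) of the 19 macrophage identity rows on the 6 media arrays, coloured by experiment, with the background limit dashed and the receptors' 99th percentile dotted. The points of a gene lie close together compared with the span between genes, and Marco, Fcer1g, Cd163 and Msr1 lie at or below the limit or between the lines on most arrays.

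The promoters of Cd68 and Laptm5 from RefSeq (GRCm38.p6) are shown as examples from the bright identity rows, chosen with their matches known. Both hold the letters GAGGAA, the core of the box that the macrophage factor PU.1 binds, when both strands are searched, as do 28.3% of all 27025 promoters. The Cd68 window lies on the minus strand at chr11:69666121-69666420 and holds 2 matches, and the Laptm5 window lies on the plus strand at chr4:130913066-130913365 and holds 1. Matches are in capitals, and a match on the opposite strand reads TTCCTC.
Cd68: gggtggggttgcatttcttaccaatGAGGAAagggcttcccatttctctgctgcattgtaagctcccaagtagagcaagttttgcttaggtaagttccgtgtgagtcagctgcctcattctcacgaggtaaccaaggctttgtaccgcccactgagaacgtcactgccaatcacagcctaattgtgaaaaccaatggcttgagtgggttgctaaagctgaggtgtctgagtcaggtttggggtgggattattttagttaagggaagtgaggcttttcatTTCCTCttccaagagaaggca
Laptm5: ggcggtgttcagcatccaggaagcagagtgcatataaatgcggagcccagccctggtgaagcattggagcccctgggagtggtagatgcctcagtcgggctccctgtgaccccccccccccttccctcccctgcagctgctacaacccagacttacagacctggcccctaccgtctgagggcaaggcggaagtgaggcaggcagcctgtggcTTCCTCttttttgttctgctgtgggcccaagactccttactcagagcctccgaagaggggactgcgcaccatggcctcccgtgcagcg
Only 13 of the 19 identity genes had a sequence, too few for a share over the list.

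Transcription factors of the macrophage lineage were above background as a group, while those of other lineages mostly were not. All 26 listed macrophage factors were in the table. Of these, 23 (88.5%) passed the limit on all 6 arrays and 19 passed the stricter line, with a median of 490.4. Of 22 factors of other lineages, 5 (22.7%) passed the limit on all arrays, 4 passed the stricter line, and 13 (59.1%) were above background on none, with a median of 139. The corresponding shares of all rows were 44.3% and 34.5%.

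The brightest macrophage factor was Cebpb, a C/EBP factor of myeloid and inflammatory genes, with 4398, 4696 and 4926 on its lowest, median and highest array. Atf3, a stress-induced factor that dampens inflammatory genes, read 3712 ± 20.1. Irf5, which drives inflammatory cytokine genes, read 2202 ± 244 and Egr2 read 2074 ± 108. Spi1 encodes PU.1, the factor without which macrophages do not form, and read 1243, 1382 and 1451 on its lowest, median and highest array. Klf6 read 1816 ± 389 and spread more widely, with 2431 and 2092 in experiment 1, 1316 and 1977 in experiment 2 and 1534 and 1547 in experiment 3. The MiT family member Tfec passed the limit on 4 arrays, Klf4 on 5 and Bhlhe41 on 2.

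Of the other lineages' factors, Tal1, which acts in blood stem cells and red cell precursors, was the brightest at 306 ± 13.5. Cebpe, a factor of granulocyte maturation, read 187 ± 17, Meis1, a factor of blood stem cells, 185 ± 7.34, the liver factor Hnf4a 171 ± 3.04 and Gata2, a factor of early progenitors and mast cells, 168 ± 6.09. The erythroid factor Gata1 and the T cell factors Gata3 and Tbx21 were above the limit on no array, at 136, 134 and 137. The B cell factor Ebf1 passed on 4 arrays, Gfi1 and Klf1 on 3 each and Foxp3 on 1.

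**Figure D3:**
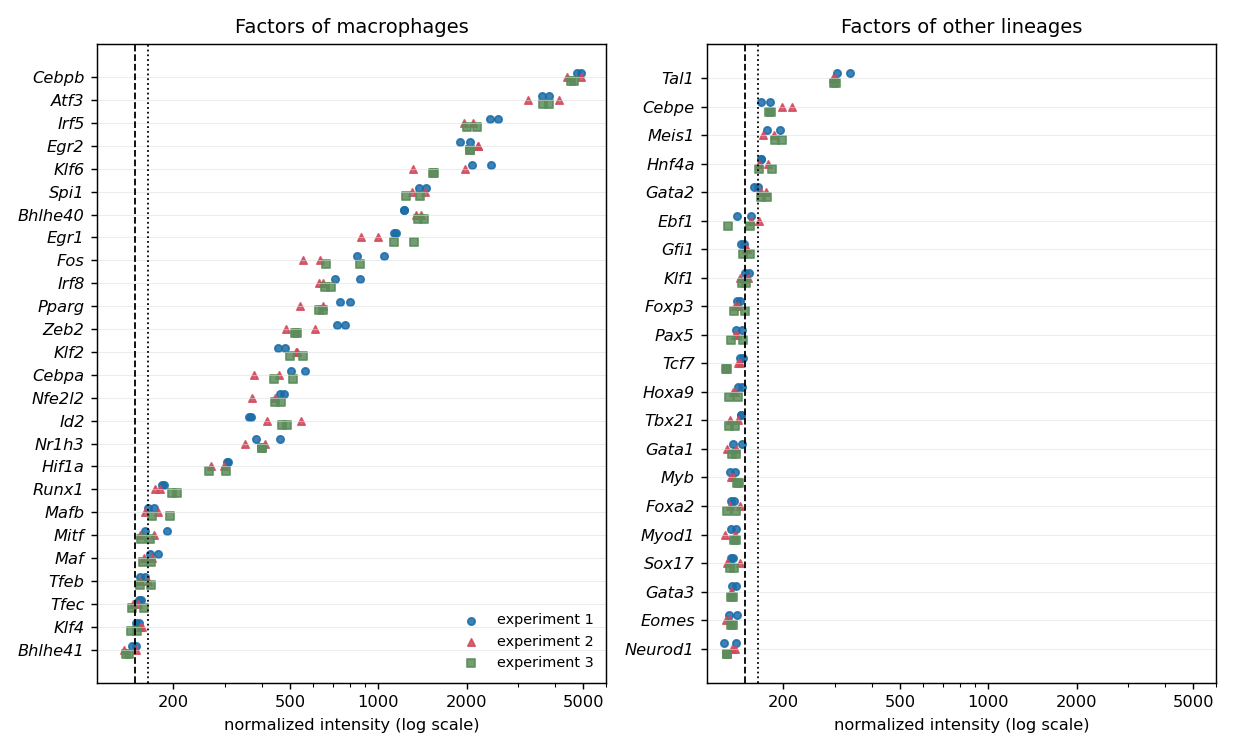
Normalized intensity (log scale) of 26 macrophage transcription factors (left) and 21 of the 22 factors of other lineages (right) on the 6 media arrays, coloured by experiment, with the background limit dashed and the receptors' 99th percentile dotted. Most macrophage factors lie to the right of both lines and most others cluster at the limit, with Tal1 the highest at 306.

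Lysosome genes were expressed throughout. All 21 lysosome genes in the table were above both lines on every array, with a median of 3248. After Psap and Ctsb came the progranulin gene Grn (23249 ± 533), the membrane protein Lamp1 (22619 ± 1081), the hexosaminidase subunit Hexa (14854 ± 519) and the tetraspanin Cd63 (14493 ± 104). The 15 actin genes were likewise above the limit on all arrays. They were led by Tmsb4x, which binds actin monomers (23310.5 ± 891), Cotl1 (15329 ± 975), the myosin light chain Myl6 (14195 ± 1184), the intermediate filament protein Vim (13924 ± 2101), the Arp2/3 subunit Arpc3 (11954 ± 553) and Actb (8754 ± 699).

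Iron and sugar metabolism were also well represented. Besides Fth1, the iron exporter Slc40a1 read 12481, 14147 and 16913 on its lowest, median and highest array. Slc11a1, which pumps metal ions out of the phagosome, read 9010.0 ± 833, the transferrin receptor Tfrc 3514 ± 491, the haem-degrading enzyme Hmox1 3019 ± 630.1 and the transporter Slc11a2 1019 ± 99.7. In all, 9 of 10 iron genes passed the limit on all arrays, against 44.3% of all rows, and the liver hormone gene Hamp was above it on none. All 14 glycolysis genes passed, led by Pkm (12503 ± 1439.7), Ldha (12273 ± 885), Gapdh (12158 ± 2004), Eno1 (10929.9 ± 1349), Aldoa (9609 ± 1034) and Hk3 (6783 ± 219).

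Of 15 genes of lipid uptake and storage, 12 (80%) passed the limit on all 6 arrays, against 44.3% of all rows. Their median was 838 over the 15. Apoe, the apolipoprotein that macrophages secrete with exported cholesterol, read 28057 and 26338 in experiment 1, 25580.1 and 21107 in experiment 3 and 23472 and 18876 in experiment 2, so that the arrays of experiment 1 lay above the others and those of experiments 3 and 2 overlapped. Trem2, a lipid-sensing receptor that signals through Tyrobp, read 17495 ± 321, Gpnmb 16728 ± 62.6 and the lipid droplet protein Plin2 2914 ± 76.8. The fatty acid receptor Cd36 passed on 5 arrays, Fabp4 on 4 and the cholesterol exporter Abca1 on 1.

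Of 15 complement genes 9 (60%) passed the limit on all 6 arrays, against 44.3% of all rows, and 7 passed the stricter line. The 3 chains of C1q, which opens the classical pathway, were all above the limit on every array, with C1qc at 5645 ± 839, C1qb at 3269.8 ± 881 and C1qa at 647 ± 118. Properdin, the stabiliser of the alternative pathway encoded by Cfp, read 15886 ± 927, the central component C3 649 ± 56.4 and Itgb2, a chain of the complement receptors CR3 and CR4, 549.8 ± 27.6. The inhibitors Cd55 and Cd46 and the receptor C3ar1 were above the limit on no array. Factors B and D, encoded by Cfb and Cfd, passed on 2 and 1 arrays.

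Sensors of microbial products were mostly present. Of 19, 15 (78.9%) passed the limit on all 6 arrays, against 44.3% of all rows. The shared adaptor Myd88 read 4251 ± 286 and Ly96, the MD-2 partner of TLR4, 2069 ± 92. Among the receptors, Tlr7 and Tlr13, which detect RNA, read 2120.1 ± 357 and 1676 ± 70.0, Tlr2, which detects bacterial lipoproteins, 1567 ± 289.7, and the fungal glucan receptor Clec7a 1296 ± 204. The inflammasome sensor Nlrp3 passed on 3 arrays, the DNA sensor Cgas on 5, Tlr3 on 1 and the RNA sensor Ifih1 on none.

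Fc and uptake receptors were led by Fcgr3. Fcgr4 followed with 8474 ± 1304, Axl, which like Mertk binds dying cells, with 3480.1 ± 598, the inhibitory Fc receptor Fcgr2b with 2125 ± 312 and the scavenger receptor Stab1 with 1017 ± 115. Of 16 genes in this group 9 (56%) passed on all arrays, against 44.3% of all rows. Tyro3, Olr1 and Msr1 passed on none.

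Of 24 cytokine receptors and related genes, 19 (79.2%) passed the limit on all 6 arrays, against 44.3% of all rows. The GM-CSF receptor chain Csf2ra read 3667 ± 215, the TGF-beta receptors Tgfbr2 and Tgfbr1 2363 ± 127 and 1734 ± 186, and the IL-10 receptor chain Il10ra 1162 ± 291. Ifngr1, the ligand-binding chain for IFN-gamma, one of the study's agents, read 1099, 1454 and 2226 on its lowest, median and highest array. Il4ra, the receptor chain for IL-4, another of its agents, read 134, 138 and 152 and passed the limit on 1 array. The type I interferon receptor chain Ifnar1, Il18r1 and Il1rl1 passed on none.

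Signalling genes downstream of isoproterenol, a beta-adrenergic agonist and the third agent, were mostly present in resting cells. Of the receptors, Adrb1 read 139, 148 and 192 on its lowest, median and highest array and Adrb3 read 144, 147 and 153, and each was above the limit on 3 of 6 arrays. Downstream, the receptor kinase Adrbk1 read 5935 ± 329, the protein kinase A subunits Prkacb, Prkar1a and Prkaca 5649.5 ± 332, 4700.1 ± 107 and 1447 ± 17.2, and beta-arrestin 2, Arrb2, 2201 ± 125. Of 19 genes of this pathway 13 (68.4%) passed on all arrays, against 44.3% of all rows. Creb1, Adcy6 and the alpha receptor Adra2b passed on none.

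Without an activator the cells still carried transcripts of many chemokines. Of 18, 14 (77.8%) passed the limit on all 6 arrays, against 44.3% of all rows. Ccl9 ranked 36 of all rows at 21929.9 ± 1267. Ccl3 and Ccl4, which attract monocytes and T cells, read 5341 ± 906 and 5278 ± 1088. Ccl6 read 4021 ± 246, Cxcl16, a transmembrane chemokine, 3488 ± 1067 and Cxcl14 2196 ± 224. Ccl17 and Cxcl12 passed on no array, Ccl22 on 2 and Cxcl9 on 1.

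Genes used as signs of IL-4 or of IFN-gamma activation passed the limit about as often as all rows did. Of 15 alternative activation genes 7 (46.7%) passed on all 6 arrays, of 18 classical activation genes 9 (50%), against 44.3% of all rows. On the alternative side, Mrc1, the transglutaminase Tgm2 (2187 ± 419) and the chemokine Ccl24 (949.7 ± 221) were well above background, and Il4i1, Mgl2 and Irf4 read 334, 215 and 180.2. Arg1, Chil3, Ccl17 and Pdcd1lg2, often used as markers of this state, were above the limit on no array, Retnla on 1 and Il10 on 4. On the classical side, Irf1 read 1446 ± 297, the cytokine gene Il1b 1301 ± 558 and the costimulatory Cd86 991 ± 209.7, and Cd80, Gbp2 and Ccl5 read 372, 354 and 337. Il12b, Ptgs2, Gbp5 and Ido1 were above the limit on no array, Il6 and Cxcl9 on 1 each, and Nos2, the inducible nitric oxide synthase, on 4 with 149.6 ± 2.59.

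Genes induced by interferon had a baseline level. Of 17, 15 (88.2%) passed the limit on all 6 arrays, against 44.3% of all rows. Ifitm3, which blocks virus entry, read 18522 ± 1257, Bst2, which tethers budding virus, 1129 ± 241 and Rsad2, the antiviral enzyme viperin, 805 ± 161. Oasl2 and Usp18 read 451 and 421, while Ifit1 and Ifi44 passed on no array.

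Genes that mark macrophages of particular tissues were present to differing extents, beside 44.3% of all rows above the limit on all 6 arrays. All 4 genes of red pulp macrophages, which clear red cells in the spleen, passed the limit, namely Slc40a1, Hmox1, the haem-induced factor Spic (201 ± 16.9) and Vcam1 (172 ± 14.6). The stricter line was passed by 3 of them, and Vcam1 read 149.6 on its lowest array. Of 7 microglia genes 5 passed, but 2 passed the stricter line, among them Gpr34 (289 ± 41.2), with Tmem119 at 165 ± 2.3, Sall1 at 160.4 ± 5.47 and P2ry12 and Siglech on no array. Of 5 Kupffer cell genes, Id3 alone passed (248 ± 31.5), of 4 alveolar macrophage genes Pparg alone (667 ± 91.6) and of 4 peritoneal macrophage genes Icam2 alone (467 ± 85.8). Clec4f, Cd5l, Car4, Fabp1 and Chil3 were above the limit on no array. Of 10 osteoclast genes 7 passed, but 5 passed the stricter line. They were led by the protease Ctsk (1526 ± 116), with Nfatc1 at 355 ± 28.5, Tnfrsf11a, the receptor RANK, at 301 ± 35.4 and the fusion protein Dcstamp at 238 ± 6.21. Acp5 read 169 ± 5.02, while Atp6v0d2 passed the limit on 2 arrays, Ocstamp on 1 and Calcr on none.

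Markers of cells outside the macrophage lineage were largely at background. None of the 7 or 8 genes tested for hepatocytes, neurons, muscle, germ cells, adipocytes or erythroid cells passed the limit on all 6 arrays, against 44.3% of all rows. Albumin (Alb) read 128 to 146, the synaptic gene Snap25 125 to 144, muscle actin Acta1 132 to 139 and the alpha-globin gene Hba-a1 119.5 to 139 over the 6 arrays. For stromal cells, which also grow in marrow cultures, 1 of 11 genes passed, Acta2 at 164 ± 4.17, and the collagens Col1a1, Col1a2 and Col3a1 and decorin (Dcn) passed on no array. These are RNA levels of whole cultures, in which few cells of a type and little RNA per cell cannot be told apart.

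**Figure D4:**
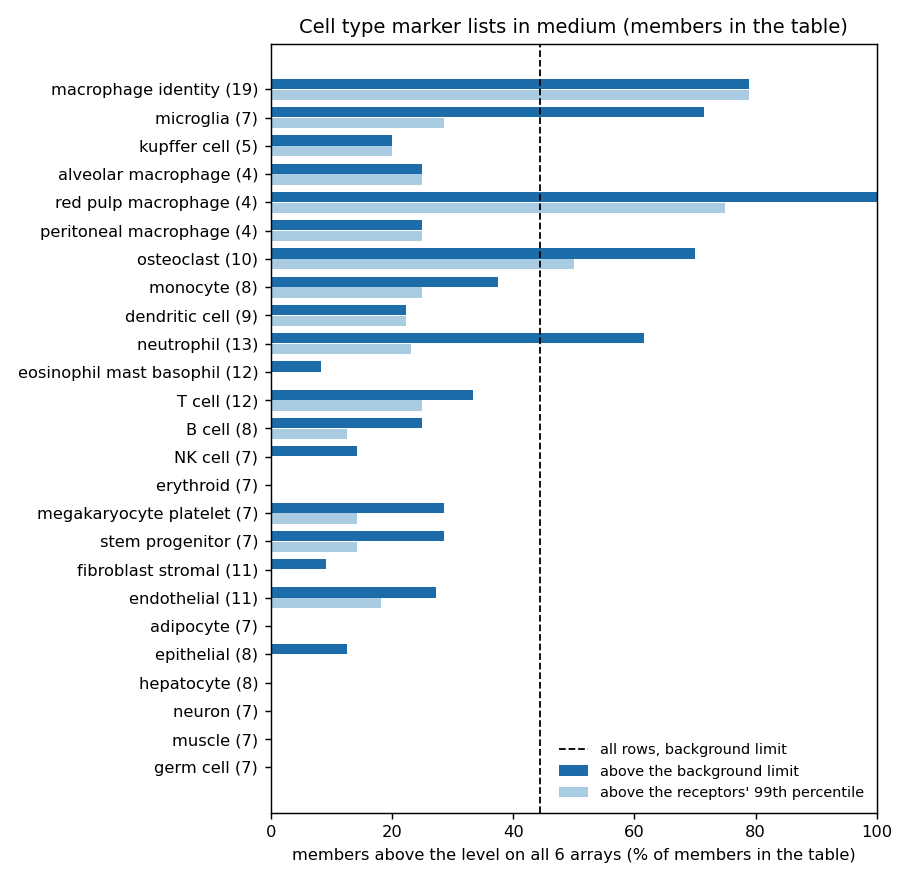
Share of each cell type's marker genes above the background limit (dark bars) and above the receptors' 99th percentile (light bars) on all 6 media arrays, in percent of the members in the table, whose number is in parentheses, with the share of all rows above the limit dashed (44.3%). The macrophage identity bars reach 78.9%, the hepatocyte, neuron, muscle, germ cell, adipocyte and erythroid lists are at 0, and the neutrophil list has 23.1% above the stricter line and 61.5% above the limit.

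Several markers of other blood and vessel cells were nevertheless above both lines on every array. Of 13 neutrophil genes 8 (61.5%) passed the limit, against 44.3% of all rows, but 3 passed the stricter line, which 38.3% of all rows passed. These 3 were S100a8 (1475 ± 302), the G-CSF receptor Csf3r (383 ± 139) and S100a9 (206 to 286 over the arrays). The granule genes Mpo, Ctsg and Prtn3 read 195 ± 16.3, 188 ± 22.9 and 171 ± 14.3, and Camp, Ngp, Mmp8 and Retnlg were each at background on at least 1 array. Of 12 T cell genes 4 (33.3%) passed the limit. The IL-7 receptor Il7r read 1336, 1814 and 2206 on its lowest, median and highest array and Cd28 read 349.7, 481 and 706. The defining T cell receptor genes Cd3e and Cd3g and the co-receptors Cd4 and Cd8a passed on no array and Cd3d on 3.

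The endothelial list gave a similar picture, with 3 of 11 genes (27.3%) above the limit on all 6 arrays, against 44.3% of all rows. Vwf, which encodes von Willebrand factor of endothelial cells and platelets, read 2534 and 2114 in experiment 2, 2162 and 2314 in experiment 1 and 1998 and 2286 in experiment 3, and its 6 values overlapped between experiments. Eng, an accessory TGF-beta receptor, read 511 ± 46.3 and Tie1 156 ± 5.67. VE-cadherin (Cdh5), Emcn, Esam and Cldn5 passed on no array, Pecam1 and Tek on 1 each and Kdr on 4. Of 7 platelet genes 2 (28.6%) passed on all arrays, platelet factor 4 (Pf4) at 2175 ± 665 and Ppbp at 173 ± 15. Gp5 and Gp1bb passed on no array and Itga2b and Gp9 on 1 each. Of 8 B cell genes 2 (25%) passed on all arrays, Cd22 at 205 ± 12.8 and Cd79b at 171 ± 6.58, and Ms4a1 passed on no array. For mast cells and eosinophils Prg2 alone passed (185 ± 41.2), for NK cells the perforin gene Prf1 alone (164 ± 6.26), and for epithelia E-cadherin (Cdh1) alone (162 ± 6.53).

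The resting level of most rows above background varied by less than 1.5-fold between experiments. Among the 8039 rows above background on all 6 arrays, the median SD of single arrays within an experiment was 0.066 on the log2 scale of deposited values. The median SD between experiment means was 0.075, and the SD between experiments was the larger in 58.2% of rows. Each experiment mean averages 2 arrays and so varies less than a single array. Setting the 2 SDs side by side thus understates the difference between experiments. The deposited values hold unsubtracted background, which narrows the log2 spread of dim rows, and 1702 of the 8039 rows read 200 or less. After the normexp background step used below, the highest experiment was less than 1.5-fold above the lowest in 7587 of the 8039 rows (94.4%). It was at least 2-fold above the lowest in 96. After the same step, log2 levels over the 8039 rows correlated at 0.996 to 0.997 between the 2 arrays of an experiment. Between arrays of different experiments they correlated at 0.983 to 0.995, as a description across genes. Among bright rows, the experiment means lay closest together for the ribosomal protein Rps19, the calcium-binding protein Sri, Gid8, Ubb-ps and Tmem60. Ppp1r35, Arhgef6, the proteasome activator subunit Psme1, Ddx24 and the lysosomal sulfatase Arsa came next. Close means do not measure the spread of single arrays. Rps19, for example, read 13163 to 14119 over the 6 arrays and Psme1 4716 to 5135.

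To ask which genes differed between experiments by more than the 2 arrays of each, a moderated F-test over the 3 experiments (limma, after a normexp background step) was fitted to the 10281 rows above the limit on at least 2 arrays. It called 966 rows (9.4%) at a Benjamini-Hochberg adjusted p under 0.05. Experiments 1 and 2 were the extremes in most of them. Of the 966, 497 were highest in experiment 2 and lowest in experiment 1, 371 were the other way round, and in 868 experiment 3 lay between. The share called was 3.09% among tested rows reading 200 or less and 12.6% to 15.2% in the bands of level from 200 to 10000. It was 7.09% from 10000 to 20000 and 0% above 20000. The calls rest on few arrays, and since separate cultures are not stated, the test weighs experiments against an array-to-array spread that may be technical. Without experiment 1 none was called at an adjusted p under 0.05, although 1457 rows had an unadjusted p under 0.05, while 176 were called without experiment 2 and 1413 without experiment 3. An F-test without moderation called 1 row. Leaving out the first or the second array of experiment 1 left 153 and 239 calls, and leaving out the second array of experiment 2 left 418.

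Proliferation genes differed together. Of 22 cell cycle genes in the table, 18 passed the filter and 17 of these were called, against 9.4% of all rows tested, and all 17 were highest in experiment 2 and lowest in experiment 1. Birc5 (survivin), which acts at the centromere during division, read 1449.7 and 1634 in experiment 2, 805 and 924 in experiment 3 and 428 and 436 in experiment 1. Its experiments did not overlap, and after the normexp step experiment 2 was 4.05-fold above experiment 1 (adjusted p = 0.000838). Ccnd1, the G1 cyclin induced by growth factors, read 2606 and 3945 in experiment 2, 1926 and 2235 in experiment 3 and 1274 and 1366 in experiment 1. It was 2.51-fold higher in experiment 2 (adjusted p = 0.00882). Mcm5, a subunit of the replicative helicase, read 2121 and 2745 in experiment 2, 1389 and 1524 in experiment 3 and 848 and 846 in experiment 1, a 3.01-fold difference (adjusted p = 0.00131). Plk1, a mitotic kinase, and Ccnb1, a mitotic cyclin, differed 3.18-fold and 3.11-fold in the same order of experiments. The exception was Pcna, the sliding clamp of DNA polymerase, named after its values were seen, with 335 and 382 in experiment 3, 309 and 348 in experiment 2 and 300.5 and 275 in experiment 1 (adjusted p = 0.118). Ccna2, Ccnb2 and Bub1 were above the limit on no array.

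The mean log2 level of the cell cycle members above background on all 6 arrays was 9.25 and 9.49 on the arrays of experiment 2, 8.78 and 8.94 in experiment 3 and 8.30 and 8.33 in experiment 1. That of the identity members, taken the same way, lay between 11.80 and 11.86 on all 6 arrays, a mean over members whose order of experiments differed, as given for Csf1r, Mertk and Mrc1 below. Without experiment 3 the cell cycle list had 17 calls, 12 without experiment 2 and none without experiment 1. With the activated arrays in the fit 2 were called, and without moderation none.

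**Figure D5:**
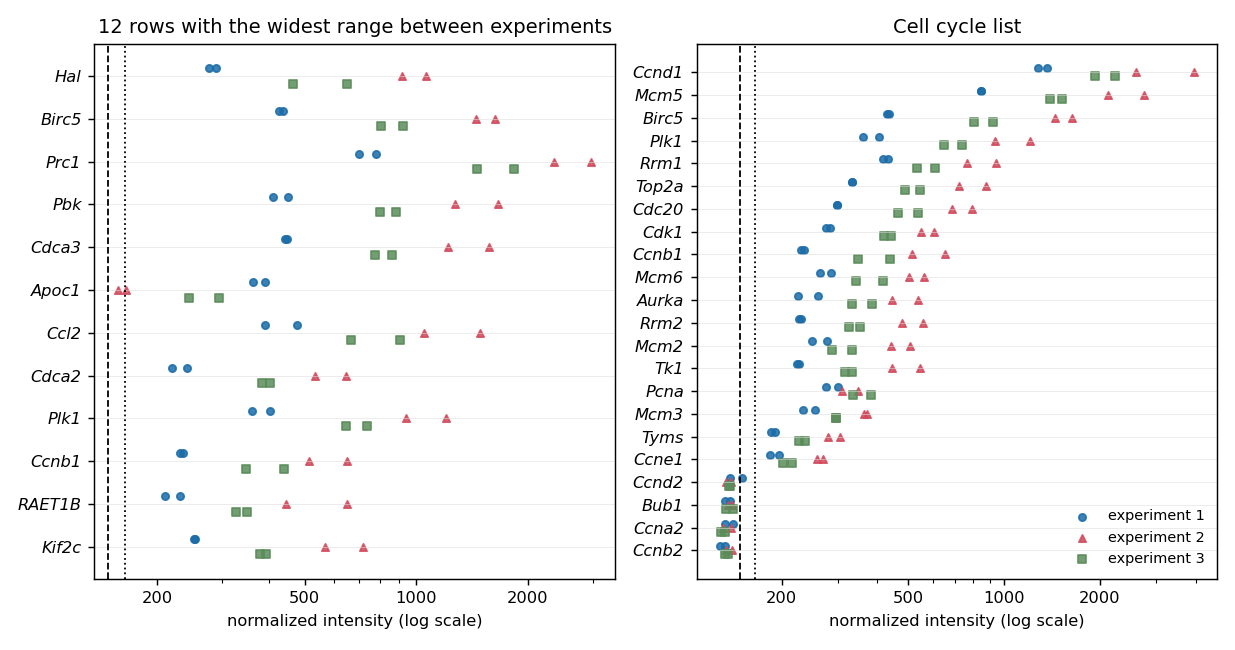
Normalized intensity (log scale) on the 6 media arrays, coloured by experiment, of the 12 called rows with the widest range between experiments (left) and of the 22 cell cycle genes in the table (right), with the background limit dashed and the receptors' 99th percentile dotted. In most rows experiment 2 lies to the right, experiment 1 to the left and experiment 3 between, Apoc1 runs the other way, and 4 cell cycle genes stay near the limit.

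Division genes also filled most of the 12 widest ranges. The widest belonged to Hal, which encodes the histidine-degrading enzyme histidase, with 913 and 1066 in experiment 2, 465 and 652 in experiment 3 and 276 and 288 in experiment 1, 4.31-fold between the extremes (adjusted p = 0.00131). Birc5, the spindle protein Prc1 (3.84-fold), the kinase Pbk (3.82-fold), Cdca3 (3.49-fold), Cdca2 (3.21-fold), Plk1, Ccnb1 and the kinesin Kif2c (3.1-fold) followed the same order of experiments. So did a row the files name RAET1B (3.1-fold) and the chemokine Ccl2. Ccl2, which recruits monocytes, read 1051 and 1487 in experiment 2, 667 and 902 in experiment 3 and 392 and 478 in experiment 1, 3.25-fold between the extremes (adjusted p = 0.00607). Apoc1, a lipoprotein component, was the only one of the 12 highest in experiment 1, with 392 and 362 in experiment 1, 294 and 244 in experiment 3 and 157 and 165 in experiment 2, 3.36-fold (adjusted p = 0.00116).

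Immune genes differed in both directions. Of 15 chemokines tested 6 were called, beside 9.4% of all rows tested, with 4 highest in experiment 2 and 2 in experiment 1. Ccl7, another monocyte attractant, averaged 996 in experiment 2 and 388 in experiment 1 (2.88-fold, adjusted p = 0.00234), whereas Cxcl16 averaged 4585 in experiment 1 and 2454 in experiment 2 (1.91-fold, adjusted p = 0.00791). Of 19 cytokine receptor genes tested 7 were called, 6 of them highest in experiment 1. Il6ra averaged 402 in experiment 1 and 243 in experiment 2 (1.92-fold), Ifngr1 2084 in experiment 1 and 1174 in experiment 2 (1.82-fold) and Tnfrsf1b 626 in experiment 1 and 392 in experiment 2 (1.75-fold), with adjusted p of 0.00617, 0.0112 and 0.0384. Of 11 classical activation genes tested 5 were called, 4 of them highest in experiment 1. Il1b read 1878 and 1738 in experiment 1, 1574 and 1208 in experiment 3 and 727 and 679.8 in experiment 2, with no overlap between experiments (2.74-fold, adjusted p = 0.00173), and Ciita, the master regulator of MHC class II genes, averaged 342 in experiment 1 and 207 in experiment 2 (1.97-fold, adjusted p = 0.00791). Without experiment 1 none of the members of these 3 lists was called, and without experiment 3 the lists had 6, 8 and 5 calls.

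Calls were also made among identity, lysosome, iron and glycolysis genes. Of 18 identity genes tested 3 were called, beside 9.4% of all rows tested. The share called was 12.6% to 15.2% in the bands of level from 200 to 10000. Csf1r averaged 3347 in experiment 1 and 2339 in experiment 2 (1.45-fold, adjusted p = 0.0276) and Mertk 886 in experiment 1 and 623 in experiment 2 (1.48-fold, adjusted p = 0.0172), whereas Mrc1 averaged 4079 in experiment 2 and 2711 in experiment 1 (1.52-fold, adjusted p = 0.0137). Of 26 macrophage factors tested 1 was called, Zeb2, with 746 in experiment 1 and 524 in experiment 3 (1.49-fold, adjusted p = 0.0331). Of 21 lysosome genes 5 were called, with cathepsin S (Ctss) the widest at 2391 in experiment 3 and 1460.4 in experiment 2 (1.67-fold, adjusted p = 0.00801). Of 9 iron genes 4 were called, among them Bach1, the haem-regulated repressor of Hmox1, at 598 in experiment 1 and 338 in experiment 2 (1.98-fold), and Hmox1 itself at 3734 in experiment 2 and 2543 in experiment 1 (1.47-fold). Of 14 glycolysis genes 3 were called, Gapdh, Pgam1 and Tpi1, all highest in experiment 2 and between 1.36- and 1.41-fold.

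Among markers of other cells, Csf3r averaged 529 in experiment 1 and 252 in experiment 2 (2.51-fold, adjusted p = 0.00131), whereas S100a8, also listed for neutrophils, averaged 1773 in experiment 2 and 1169 in experiment 1 (1.55-fold, adjusted p = 0.0157). The 2 neutrophil genes thus had opposite orders of experiments. Pf4 averaged 2729 in experiment 2 and 1437 in experiment 1 (1.94-fold, adjusted p = 0.0112) and Il7r 2139 in experiment 1 and 1443 in experiment 2 (1.51-fold, adjusted p = 0.0168).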

How the data were processed

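Bone marrow derived macrophages in medium alone were measured on 6 Illumina MouseRef-8 v2.0 arrays, 2 from each of 3 experiments. The values are normalized intensities for 18132 gene rows, deposited by the authors from GenomeStudio per the submitters' processing notes. Between the media arrays of the deposited table the intensity at a given rank varied by a CV under 1% for 99.4% of ranks, so the arrays share one distribution, which hides any difference in total RNA and is read as quantile normalization, and the intensities had no background subtracted. A second deposited table of 25697 probes without gene names served as an alternative. The sources used here do not tell which probes stand behind a gene row.

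Row names were matched to RefSeq symbols, 14305 directly and 2682 through a synonym, and 1145 kept the file's name. The arrays and the 44 gene lists (532 genes, of which 494 were in the table and 38 were not analysed here) were chosen with earlier results of these data known. The background limit was read from the part of the intensity distribution under its peak. For differences between experiments, intensities were corrected with normexp (offset 50), taken to log2 and fitted with limma 3.58.1 in R 4.3.3 (lmFit, eBayes), with a moderated F-test over the 3 experiments and Benjamini-Hochberg adjustment over 10281 rows. The procedure was tested on simulated data. Folds between experiments are on the corrected scale, while levels are as deposited.

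Genes were named by rule: the 3 markers, the 25 brightest rows, the 12 widest called rows and the 10 bright rows with the closest experiment means. In each list they were the 6 brightest above background on all arrays, the first 4 above it on none and those above it on some. The 3 widest called in each list were also named. No depth exists for arrays, and their number limits the precision. Replicate numbers did not pair arrays across experiments: deviations of same-numbered arrays correlated at -0.09, 0.07 and 0.16. Activated arrays entered 1 alternative only. Some genes that the rule would name are not reported here.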

Additional observations from a re-analysis of the deposited data

Results flagged for a closer look

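Of 80 gene and list levels checked for a single array far from the other 5, 2 stood out, and chance alone flags about 1 in 20 such groups. The mean log2 level of the NK cell list, which rests on Prf1 as the member above background on all arrays, was 7.49954 on the first array of experiment 1 and 7.29 to 7.35 on the others. The mean log2 level of the stem and progenitor list was 7.67084 on the second array of experiment 2 and 7.45 to 7.52 on the others. Both lists lie near the background limit.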

How the results depend on the processing

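Levels depended little on the processing: 23 to 25 of the 25 brightest rows stayed among them with the median of the 6 arrays or without an experiment. The count of rows above background on all arrays ranged from 6948 to 9010 over the alternatives, and the share was 43.9% among probes of the non-normalized table, but the count above it on none was 9744 at the receptors' 99th percentile, a line chosen after seeing the data. Differences between experiments depended more on the processing. The count of called rows was 1530 without normexp, 1 without moderation and 433 with a 1.5-fold minimum. It was 875 with the replicate number as a block, of which 815 were shared, 732 with all 24 arrays, 710 without a filter, 1318 with the filter on all 6 arrays and 1035 among probes. Leaving out an experiment or an array gave 0 to 1413 calls. The cause of these changes was not tested, apart from the fewer arrays and rows that some alternatives use.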

Other observations

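Beyond the 25 brightest rows and the lists, the next rows by level held genes of several kinds, among them ribosomal proteins and predicted genes. Those given here were named after their values were seen. Cyba, the membrane subunit of the phagocyte NADPH oxidase, read 23798 ± 495, the secreted cathepsin inhibitor Cst3 23632 ± 1565, the lymphocyte and myeloid surface peptide Cd52 21165 ± 667, the metallothionein Mt1 21511 ± 2192 and brain-type creatine kinase Ckb 21870.1 ± 1611 (mean ± SD over 3 experiments). Lgals1 read 21879.8 ± 2052 and the calcium-binding protein S100a11 21719 ± 1342.

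Among the rows just behind the 12 widest ranges between experiments were further division genes, such as Mcm5, Cdc20 and Kif22. Others were genes of other kinds, and those given here were also named after their values were seen. H2-Ab1, a chain of MHC class II, read 4663 and 3312 in experiment 1, 3086 and 1979 in experiment 3 and 1342 and 1298 in experiment 2, 3.09-fold between the extremes (limma moderated F-test, adjusted p = 0.0083), and the 2 arrays of experiments 1 and 3 lay far apart. Pltp, which transfers phospholipids between lipoproteins, read 1860.4 and 1828 in experiment 1, 1249 and 1006 in experiment 3 and 688 and 644 in experiment 2 (2.97-fold, adjusted p = 0.00116). S100a4 ran the other way with 641 and 734 in experiment 2, 447 and 513 in experiment 3 and 259 and 278 in experiment 1 (3.09-fold, adjusted p = 0.00116).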
